A study of Mus musculus
Mus spretus with 18 samples.

Results

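Kidneys of F1 hybrid mice carried a C57BL/6J and a SPRET/EiJ copy of every autosomal gene in the same nuclei, and the splicing of both copies was compared here. The first strain is the common inbred laboratory mouse, and the second is inbred from the wild species Mus spretus. The animals were female offspring of C57BL/6J mothers and SPRET/EiJ fathers, were 8 weeks old, and gave 2 kidney libraries. The tissue was frozen before RNA was extracted with TRIzol, and the libraries were stranded mRNA libraries. The groups compared were the reads assigned to the C57BL/6J allele and those assigned to the SPRET/EiJ allele within each library, so strain and parent of origin cannot be told apart in this cross. The members were 24802 skipped exon (SE) events in 7884 genes, out of 31157 autosomal events in the kidney table and 79436 autosomal events in the allelic tables of 7 tissues. They were chosen by a minimum of 20 junction reads on each allele in each library, with 146 events at exactly 20 reads as their lowest count and 158 events left out at 19. The inclusion level was measured as percent spliced in (PSI), the length-corrected share of inclusion reads, given from 0 to 1. ΔPSI was taken over 2 libraries as C57BL/6J minus SPRET/EiJ, so a positive value means more inclusion on C57BL/6J.

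In an SE event, an internal exon is either kept in the mature mRNA or joined out together with its flanking introns. The choice depends on the splice sites and on short sequence elements in and near the exon, which are read by splicing factors shared by all transcripts of a cell. In an F1 hybrid both alleles meet the same factors, which is why such crosses are used to look for cis-acting differences. Kidney epithelia are known for their large sets of solute carriers and channels, for endocytosis of filtered protein in the proximal tubule, and for enzymes that modify drugs and steroids.

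Kidney markers were high in both libraries, and adrenal and adipocyte markers were found beside them. Of 15 kidney markers, 14 were higher in both kidney libraries than in every library of the other tissues, and the sum of the list was 63532 and 67740 TPM, a transcript level scaled for gene length and depth. The adrenal markers Star and Cyp11b1 summed to 984 TPM in the second library against 1.78 TPM in the first. The adipocyte markers Adipoq, Plin1 and Ucp1 summed to 69.9 and 83.1 TPM, and each was higher in both kidney libraries than in every library of the other tissues, for example Adipoq at 29.6 and 51.5 TPM against at most 17.5. Liver markers summed to 102 and 154 TPM, and heart markers to 0.481 and 0.368 TPM. Both alleles of a library came from the same cells, and the part of adrenal and adipocyte RNA in the results was not tested beyond leaving out each library. Summed over all SE events, each allele had between 25610503 and 28281759 junction reads per library. Of these sums, 48.3% and 48.6% were on the C57BL/6J allele. A read at a junction shared by several events counts in each of them. The median event had 242 to 254 reads on an allele in a library.

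Imprinted genes were used to check the allele labels, because the maternal copy was C57BL/6J. Grb10, an adaptor of growth factor receptors that is known to be expressed from the maternal copy in most tissues, had 205 and 279 reads on the C57BL/6J allele and 1 and 0 on the SPRET/EiJ allele. Igf2r, the maternally expressed receptor that clears insulin-like growth factor, had 365 and 274 reads on the C57BL/6J allele and 24 and 17 on the SPRET/EiJ allele. Plagl1, a paternally expressed zinc finger protein, had 2 and 0 reads on the C57BL/6J allele and 94 and 70 on the SPRET/EiJ allele. These 3 genes were read mainly from the copy of the parent known to express them. Slc22a18, the 1 other measured gene of the imprinted lists and maternally expressed, had 64.7% and 61.2% of its reads on the C57BL/6J allele and was not called.

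Between the alleles, 445 of 24802 events were divergent in kidney, at an adjusted p under 0.05 and a |ΔPSI| of at least 0.1 (1.79% of the events tested). They lay in 424 exons of 351 genes. Inclusion was higher on the C57BL/6J allele in 256 events and higher on the SPRET/EiJ allele in 189. The differences were often large, with a median |ΔPSI| of 0.268, and 25 events were at 0.8 or above. In 16 events the exon was almost always kept on 1 allele (PSI over 0.9) and almost always skipped on the other (PSI under 0.1) in both libraries. Over all events the median |ΔPSI| between alleles was 0.00912, and the median difference between libraries was 0.00713 for the C57BL/6J allele and 0.00680 for the SPRET/EiJ allele. Among the 2361 events with a mean PSI from 0.1 to 0.9, these medians were 0.0954, 0.0451 and 0.0466.

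**Figure D1:**
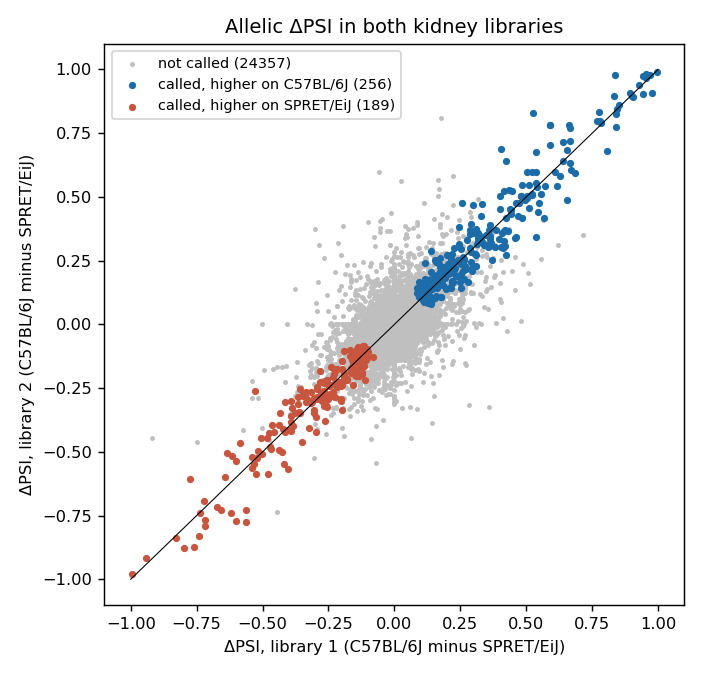
ΔPSI of each of the 24802 events in the first kidney library (x axis) and the second (y axis), both as C57BL/6J minus SPRET/EiJ PSI; points are events, blue and red ones are divergent, and the line marks equal values. The 256 blue and 189 red events sit near the line in the upper right and lower left, away from 0 in both libraries.

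The test was a quasi-binomial model of inclusion against skipping reads with dispersions moderated by limma, adjusted by the Benjamini-Hochberg method. With the library as a replicate block, which leaves 1 residual degree of freedom per event, the same model gave 0 calls (smallest adjusted p = 0.181, moderated by limma), while 2291 events had an unadjusted p under 0.05. Other forms of the block, chosen after seeing the data, gave 39 calls with a prior from events with 100 or more reads of the rarer form, 379 with dispersions raised to 1 before moderation, and 962 by limma on the log2 ratio of inclusion to skipping reads, among them all 445. The number of calls with the block thus depended on how the spread was estimated, from 0 to 962. All 24 exons named below lost their call in the planned block, with adjusted p from 0.181 to 0.339, moderated by limma.

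The plot of called shares shows where along the inclusion scale the divergent events lay. Of 299 events with a mean PSI over 0.3 and up to 0.5, 59 (19.7%) were divergent, and of 376 events over 0.5 and up to 0.7, 72 (19.1%). Of 20879 events with a mean PSI over 0.9, 90 (0.431%) were. A |ΔPSI| of 0.1 cannot be reached by events in which both alleles are under 0.1 or both over 0.9, so the limit itself sets part of this pattern. In 189 divergent events the SPRET/EiJ allele was near 0 or 1 (mean PSI under 0.1 or over 0.9) and the C57BL/6J allele was not. In 139 it was the other way round, and in 100 events both alleles were between 0.1 and 0.9.

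**Figure D2:**
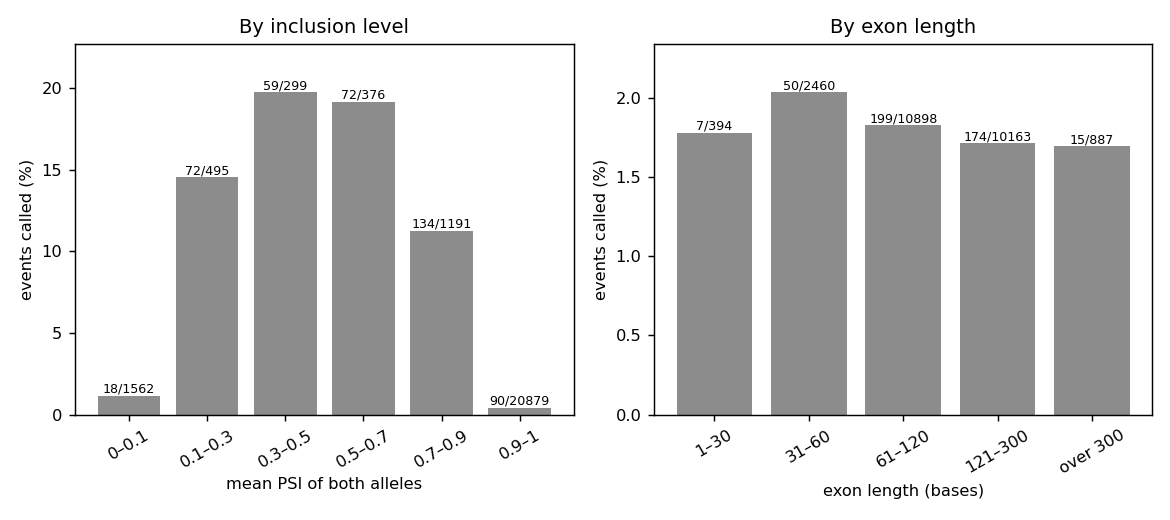
Percent of events that were divergent between alleles in kidney (y axis) by the mean PSI of both alleles (left, x axis) and by exon length in bases (right, x axis); the numbers above the bars are divergent over tested events. The left bars reach 19.7% at intermediate PSI, and the right bars stay between 1.69% and 2.03%.

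Exon length moved little with the calls. Micro-exons of up to 30 bases were divergent in 7 of 394 events (1.78%), and exons over 300 bases in 15 of 887 (1.69%). Exons whose length is a multiple of 3, which keep the reading frame if they are coding, were divergent in 211 of 10443 events (2.02%), against 234 of 14359 (1.63%) for the other lengths. Events in genes that RefSeq lists as lncRNA were divergent in 11 of 96 cases (11.5%), against 411 of 23258 (1.77%) in protein-coding genes. In all, 94.3% of the events lay in genes matched to RefSeq.

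The exons below are the 24 with the largest |ΔPSI|, 1 per gene, in mm10 coordinates. Their |ΔPSI| ran from 0.744 to 0.992, with standard errors from 0.00245 to 0.0641 over 2 libraries, and adjusted p-values from 0.000171 to 0.00686 by the quasi-binomial test with limma. Of the 24, 18 were more included on the C57BL/6J allele and 6 on the SPRET/EiJ allele. The exons were 56 to 229 bases long, and 14 had a length that is a multiple of 3. The 24 were chosen among events whose alleles did not overlap in PSI, so the same direction in both libraries was a condition of choice. Whether each exon is coding or untranslated was not analysed here.

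**Figure D3:**
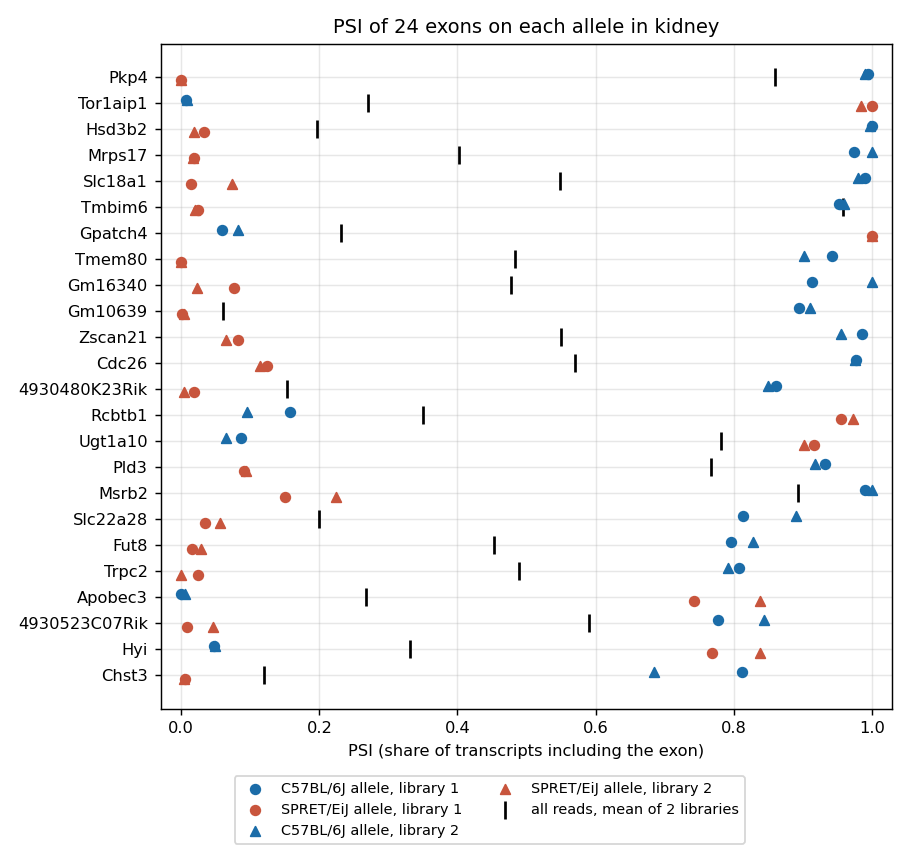
PSI (x axis) of the 24 exons with the largest allelic differences in kidney (rows); blue points are the C57BL/6J allele, red points the SPRET/EiJ allele, circles the first library and triangles the second, and black bars the mean PSI of all reads of both libraries. Blue and red points lie apart in every row, which was a condition for choosing these exons. The black bar lies between them in 23 rows, all but Tmbim6.

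The largest difference was in Pkp4 (plakophilin, an armadillo-repeat protein of cell junctions), in the exon at chr2:59305066-59305197 on the plus strand. Its PSI was 0.995 and 0.990 on the C57BL/6J allele and 0 and 0 on the SPRET/EiJ allele. The SPRET/EiJ allele had no inclusion read among 96 and 126 reads, which allows a share of up to 3.12% and 2.38% of reads by counting error alone. The C57BL/6J allele had 1505 and 1366 reads at this event, and the PSI of all reads was 0.860. Over all SE events of Pkp4 the C57BL/6J share was 56.4% and 55.8%. The reason for the unequal depth at this exon was not tested. In all, 6 of 25 tested Pkp4 events were divergent. Tor1aip1, an inner nuclear membrane protein that activates torsin, showed the opposite direction in the exon at chr1:156019968-156020023 on the minus strand. Its PSI was 0.00648 and 0.00771 on the C57BL/6J allele and 1 and 0.985 on the SPRET/EiJ allele. Tmbim6, a membrane protein of the endoplasmic reticulum that limits cell death, had a PSI of 0.953 and 0.960 on the C57BL/6J allele and of 0.0244 and 0.0201 on the SPRET/EiJ allele at chr15:99401580-99401663. Its alleles differed widely in depth, with 7790 and 8603 reads on the C57BL/6J allele and 126 and 152 on the SPRET/EiJ allele. Tmem80, a transmembrane protein, had a PSI of 0.943 and 0.903 against 0 and 0 at chr7:141331418-141331561, with 30 and 29 reads on the SPRET/EiJ allele.

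Mrps17, a protein of the small subunit of the mitochondrial ribosome, had a PSI of 0.974 and 1 on the C57BL/6J allele and of 0.0187 and 0.0173 on the SPRET/EiJ allele at chr5:129715684-129715912. Of its 7 tested events, 5 were divergent. Msrb2, a mitochondrial methionine sulfoxide reductase, had a PSI of 0.990 and 1 against 0.150 and 0.224 at chr2:19378162-19378262. Cdc26, a subunit of the anaphase-promoting complex, had a PSI of 0.978 and 0.976 against 0.124 and 0.114 at chr4:62404456-62404552 (ΔPSI 0.857 ± 0.00504 SE, n = 2 libraries, limma-moderated adjusted p = 0.000171). Both alleles of Cdc26 were read deeply, with 466 reads or more in each library.

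Hsd3b2, of the hydroxysteroid dehydrogenases that make steroid hormones, had a PSI of 1 and 0.998 on the C57BL/6J allele and of 0.0323 and 0.0182 on the SPRET/EiJ allele at chr3:98723833-98723892. It had 542 and 1936 reads on the alleles in the first library and 818 and 1778 in the second. The PSI values were alike in both libraries, of which the second held the adrenal markers. Ugt1a10, a UDP-glucuronosyltransferase that conjugates drugs and other small compounds, had a PSI of 0.0869 and 0.0644 on the C57BL/6J allele and of 0.917 and 0.902 on the SPRET/EiJ allele at chr1:88056262-88056336. Slc22a28, of the organic anion transporter family, had a PSI of 0.813 and 0.891 against 0.0351 and 0.0563 at chr19:8063287-8063490. Slc18a1, a vesicular monoamine transporter, had a PSI of 0.990 and 0.980 against 0.0144 and 0.0741 at chr8:69077189-69077263. Gm10639 had a PSI of 0.895 and 0.911 against 0.00109 and 0.00403 at chr9:78294002-78294115. Hsd3b2, Ugt1a10, Slc22a28 and Gm10639 have close relatives next to them in the genome, so the assignment of their reads to a gene and an allele is uncertain.

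Fut8, Chst3, Pld3 and Hyi had differences between 0.744 and 0.833 in size. Fut8, which adds core fucose to N-glycans, had a PSI of 0.796 and 0.828 on the C57BL/6J allele and of 0.0156 and 0.0287 on the SPRET/EiJ allele at chr12:77323845-77323937. Chst3, a sulfotransferase of chondroitin, had a PSI of 0.812 and 0.684 against 0.00518 and 0.00441 at chr10:60194093-60194245, with 29 and 48 reads on the C57BL/6J allele. Pld3, a lysosomal enzyme of the phospholipase D family, had a PSI of 0.932 and 0.918 against 0.0909 and 0.0933 at chr7:27545188-27545285. Hyi, named for hydroxypyruvate isomerase but listed as a transcribed pseudogene in RefSeq, went the other way, with a PSI of 0.0479 and 0.0485 on the C57BL/6J allele and of 0.768 and 0.838 on the SPRET/EiJ allele at chr4:118360306-118360389. In these 4 genes the C57BL/6J allele kept the exon in 3 and skipped it in Hyi.

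The remaining named exons lay in regulators and in genes of less known function. Apobec3, a cytidine deaminase that restricts retroviruses, had a PSI of 0 and 0.00578 on the C57BL/6J allele and of 0.743 and 0.838 on the SPRET/EiJ allele at chr15:79899020-79899118. Zscan21, a zinc finger transcription factor, had a PSI of 0.986 and 0.956 against 0.0815 and 0.0654 at chr5:138117836-138117920. Gpatch4, a G-patch protein, had a PSI of 0.0588 and 0.0820 against 1 and 1 at chr3:88043467-88043601, with 21 to 45 reads on an allele. Rcbtb1, with RCC and BTB domains, had a PSI of 0.157 and 0.0949 against 0.956 and 0.973 at chr14:59205625-59205722. Trpc2, the cation channel of pheromone-sensing neurons, had a PSI of 0.808 and 0.791 against 0.0238 and 0 at chr7:102069897-102069991, which lies before the start of Trpc2 in RefSeq on the same build. The last 3 were Gm16340 (PSI 0.913 and 1 against 0.0759 and 0.0222), 4930480K23Rik (0.862 and 0.850 against 0.0186 and 0.00448) and 4930523C07Rik (0.778 and 0.843 against 0.00855 and 0.0459).

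Reads that fit both genomes equally well carry no allele, so the PSI of assigned reads was held against that of all reads. They lay within 0.1 of each other in 21 of the 24 named exons, in 409 of the 445 divergent events and in 24320 of all 24802 events. Agreement was thus less frequent among the divergent events than over all events. The study kept only events that passed such a check for its allelic analyses. The 3 exceptions among the named exons were Slc18a1 (0.835 from allelic reads, 0.549 from all reads), Tmem80 (0.796 and 0.484) and Gm16340 (0.313 and 0.477). In Slc18a1 and Tmem80 the mean PSI of all reads was lower than that of assigned reads, and in Gm16340 it was higher.

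Genes of renal transport, the solute carriers and channels that reclaim salt, sugar and organic ions along the nephron, had 20 divergent events among 646 tested (3.10%, against 1.79% of all events). These lay in 13 of 107 measured genes, with 11 events higher on the C57BL/6J allele and 9 on the SPRET/EiJ allele. The median |ΔPSI| of the group was 0.00400. Slc22a28 led, as given above. Kcnj15, an inward rectifier potassium channel, had a PSI of 0.717 and 0.717 on the C57BL/6J allele and of 0.0769 and 0 on the SPRET/EiJ allele, where only 28 reads were counted in each library (chr16:95258853-95258956). Kcnj16, its relative in the distal nephron, had a PSI of 0.108 and 0.123 against 0.389 and 0.307 (ΔPSI -0.233 ± 0.0417 SE, limma-moderated adjusted p = 0.0108, chr11:110986430-110986510).

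In endocytosis, 4 of 265 events were divergent (1.51%, against 1.79% of all events), in 3 of 59 genes. All 4 were higher on the C57BL/6J allele, as were 57.5% of all divergent events. Dab2, the adaptor that couples megalin to clathrin in the proximal tubule, had a PSI of 0.446 and 0.643 on the C57BL/6J allele and of 0.0248 and 0 on the SPRET/EiJ allele, in an exon of 350 bases at chr15:6329558-6329907. Rab11fip3, of recycling endosomes, had a PSI of 0.906 and 0.902 against 0.601 and 0.625 in an exon of 36 bases. Ap2m1, the medium subunit of the clathrin adaptor at the plasma membrane, differed in a micro-exon of 6 bases, with a PSI of 0.809 and 0.808 against 0.696 and 0.720. The Dab2 values of the C57BL/6J allele differed between libraries by more than those of the other genes of this group, and both exceeded the SPRET/EiJ values.

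In adhesion and cytoskeleton genes, 9 of 455 events were divergent (1.98%, against 1.79% of all events), in 4 of 88 genes. Next to Pkp4, its relative Ctnnd1 (p120 catenin, which holds cadherins at the membrane) had a PSI of 0.232 and 0.250 on the C57BL/6J allele and of 0.657 and 0.749 on the SPRET/EiJ allele (chr2:84603188-84603274). Add3, an adducin of the spectrin skeleton, had a PSI of 0.732 and 0.699 against 0.479 and 0.463. Among mitochondrial genes of respiration and fatty acid oxidation, 14 of 519 events were divergent (2.70%, against 1.79% of all events). Of the 14, 10 were higher on the C57BL/6J allele. After Mrps17 came Mrpl30, a mitochondrial ribosomal protein, with 0.518 and 0.574 against 0.975 and 0.996. Acad10, of the acyl-CoA dehydrogenase family, had 0.983 and 0.991 against 0.563 and 0.682.

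In immune genes, 10 of 152 events were divergent (6.58%, against 1.79% of all events), in 9 of 49 genes. Ifi27, an interferon-induced protein, had a PSI of 0.552 and 0.545 on the C57BL/6J allele and of 0.0116 and 0.00405 on the SPRET/EiJ allele (chr12:103437390-103437524). H2-T24, a non-classical histocompatibility gene with close relatives nearby and therefore uncertain, had 0.167 and 0.246 against 0.942 and 0.853. Gbp3, an interferon-induced GTPase, had 0.0545 and 0.0465 against 0.576 and 0.571, with 26 and 22 reads on the SPRET/EiJ allele. In xenobiotic metabolism, 12 of 386 events were divergent (3.11%, against 1.79% of all events), in 10 of 92 genes. After Ugt1a10 came Ces3b, a carboxylesterase, with a PSI of 1 and 1 against 0.478 and 0.492. Cyp4f17, a cytochrome P450, had 0.553 and 0.663 against 0.966 and 0.968. As for other members of gene clusters, the assignment of such reads is uncertain.

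Splicing regulators and decay genes together had 1 divergent event by the quasi-binomial test. Among splicing regulators, 1 of 334 events was divergent (0.299%, against 1.79% of all events), in Hnrnpf, an RNA-binding protein of guanine-rich elements. Its PSI was 0.260 and 0.250 on the C57BL/6J allele and 0.116 and 0.0952 on the SPRET/EiJ allele. No event passed the test among 26 in nonsense-mediated decay genes or among 135 in genes of the podocyte and glomerular basement membrane, which form the filter of the kidney. By the quasi-binomial test 1 and 10 of these events had an unadjusted p under 0.05, and limma on log2 ratios called 0 in both. Their median |ΔPSI| was 0.0146 and 0.00427. At 1.79% over all events, 0 calls among 26 and 135 events says little about the decay and podocyte groups. In the splicing regulators the limma fit called 6 events. No test compared the groups with each other or with the rest of the genes.

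Next, the allelic balance was taken from junction reads summed over all SE events of a gene. Of 8448 genes with 40 or more reads in each library, 1000 had unequal alleles (11.8%), at an adjusted p under 0.05 by limma and a ratio of at least 2-fold in scaled reads. The C57BL/6J allele was higher in 532 and the SPRET/EiJ allele in 468. The split depended on the scaling, with 635 against 395 when libraries were scaled by their totals, and it was 344 against 348 among genes with 200 or more reads. In 5694 genes the C57BL/6J share was between 40 and 60% in both libraries, and the median |log2 ratio| over all genes was 0.29. The C57BL/6J share was over 90% in both libraries in 80 of the unequal genes and under 10% in 82. An SE event enters the sum only where the counting tool listed it, so genes with few SE events rest on few junctions. A read at a junction shared by several events of a gene is counted in each, so a sum can exceed the number of distinct reads.

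**Figure D4:**
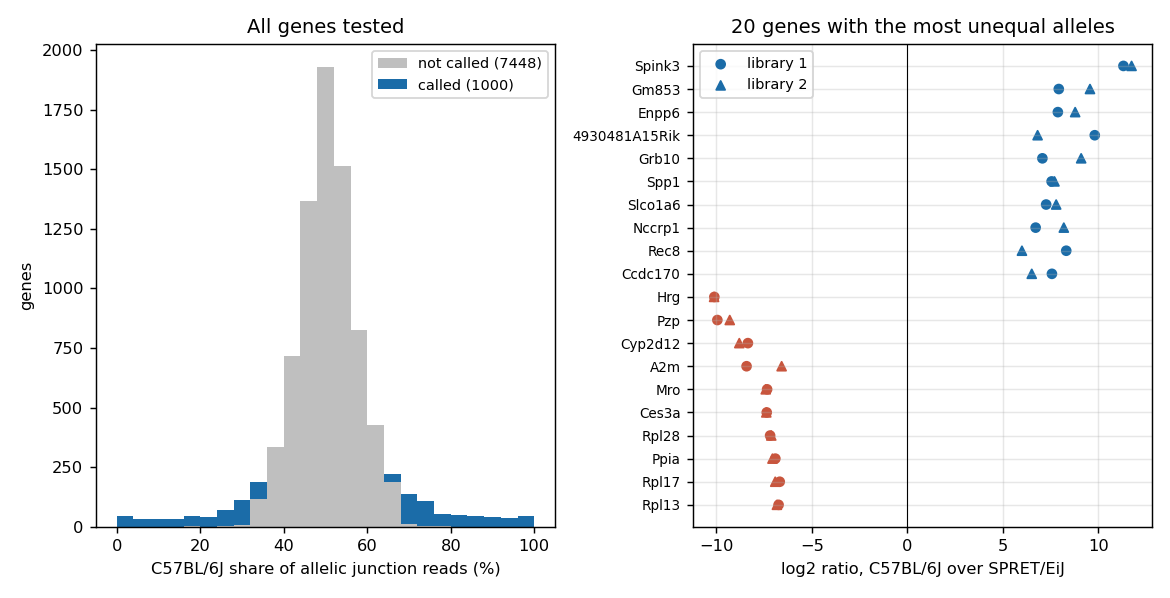
Left, number of genes (y axis) by the C57BL/6J share of allelic junction reads in percent, mean of 2 libraries (x axis), with the 1000 unequal genes in blue on top of the other genes in grey. Right, log2 ratio of C57BL/6J over SPRET/EiJ reads (x axis) of the 10 highest and 10 lowest genes in each library; most genes lie near 50% on the left, and the ratio nearest to 0 on the right is 6.00, for Rec8 in the second library.

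Of the genes read mainly from the C57BL/6J allele, some are abundant in kidney. Spink3, a protease inhibitor, had 55814 and 61006 reads on the C57BL/6J allele and 21 and 17 on the SPRET/EiJ allele (log2 ratio 11.53 ± 0.27 SE, limma adjusted p = 2.31e-06). Spp1 (osteopontin), a secreted phosphoprotein that inhibits crystal growth in urine, had 32053 and 35124 reads against 167 and 165 (log2 ratio 7.63 ± 0.12 SE), at 3276 and 3256 TPM. Slco1a6, an organic anion transporter of the kidney, had 14049 and 12756 reads against 89 and 56. Gm853 had 2856 and 3464 reads against 11 and 4. In each of the 4 genes the SPRET/EiJ reads were under 1% of the total in both libraries.

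Lower-count genes of the same side were Enpp6, Nccrp1, Rec8, Ccdc170, Grb10 and 4930481A15Rik. Enpp6, a choline phosphodiesterase, had 600 and 674 reads on the C57BL/6J allele and 2 and 1 on the SPRET/EiJ allele, a C57BL/6J share of 99.8% (95% Clopper-Pearson interval 99.3 to 99.95%, counting error only). 4930481A15Rik, a lncRNA, had 458 and 402 reads against 0 and 3, and its share was 99.7% (99.0 to 99.9%). Grb10 had a share of 99.8% (98.9 to 99.99%). Nccrp1 had 804 and 744 reads against 7 and 2, and Rec8, a meiotic cohesin subunit, 488 and 488 against 1 and 7. Ccdc170 had 290 and 418 against 1 and 4. The imprinted Grb10 was thus 1 of the 10 most C57BL/6J-rich genes.

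Of the genes read mainly from the SPRET/EiJ allele, Hrg, histidine-rich glycoprotein, had 43 and 43 reads on the C57BL/6J allele and 47214 and 47661 on the SPRET/EiJ allele (log2 ratio -10.12 ± 0.19 SE, limma adjusted p = 8.68e-07), at 755 and 744 TPM. Pzp, a broad protease inhibitor, had 99 and 161 reads against 96741 and 100245. Its relative A2m had 7 and 57 against 2525 and 5428, with 31.5 and 68.3 TPM, and both were higher in the second library, which held the adrenal markers. The part of adrenal RNA in A2m was not tested. Cyp2d12, a cytochrome P450, had 417 and 302 reads against 133896 and 132759, Ces3a, a carboxylesterase, 9 and 12 against 1538 and 2058, and Mro 46 and 44 against 7428 and 7477. In all 6 genes the C57BL/6J share was at most 1.04% in each library.

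The other 4 of the 10 most SPRET/EiJ-rich genes were Rpl28, Rpl17 and Rpl13, of the large ribosomal subunit, and Ppia (cyclophilin A). Rpl28 had 124 and 137 reads on the C57BL/6J allele and 17834 and 18913 on the SPRET/EiJ allele, and Ppia 541 and 566 against 64110 and 74608. Rpl17 had 71 and 62 against 7221 and 7442, and Rpl13 56 and 55 against 5949 and 6218. These genes are known to have many processed pseudogene copies in the mouse genome, so their read assignment is uncertain. The same holds for members of gene clusters such as Cyp2d12, Ces3a and Slco1a6.

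By group, xenobiotic metabolism had the largest share of unequal genes among the lists with more than 3 genes, with 49 of 105 (46.7%, against 11.8% of all genes) and a median |log2 ratio| of 1.05. The C57BL/6J allele was higher in 22 and the SPRET/EiJ allele in 27. Besides Cyp2d12 and Ces3a, Cyp2d9 had 1200 and 672 reads on the C57BL/6J allele and 7 and 11 on the SPRET/EiJ allele, opposite to its neighbour Cyp2d12. Read assignment is uncertain for members of gene clusters, so the share of this list and the opposite directions of Cyp2d9 and Cyp2d12 are uncertain too. In immune genes 15 of 56 were unequal (26.8%), 11 of them toward C57BL/6J, led by H2-T22 (1713 and 2119 reads against 24 and 36), H2-T23 (1631 and 1656 against 150 and 129) and H2-Q10 (448 and 502 against 36 and 46). These histocompatibility genes are near-identical in part, and their values are uncertain.

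Renal transport had 13 unequal genes of 109 (11.9%, against 11.8% of all genes), 8 toward C57BL/6J. After Slco1a6 came Slc7a13, an amino acid transporter of the proximal tubule, with 689 and 738 reads on the C57BL/6J allele and 7156 and 7122 on the SPRET/EiJ allele, and Slc22a30, of the organic anion transporters, with 119 and 138 against 1021 and 1288. Mitochondrial genes had 12 of 164 (7.32%, against 11.8% of all genes), 9 toward SPRET/EiJ. They were led by Timm23 of the import machinery (54 and 53 reads against 2540 and 2675), Mrpl23 (58 and 54 against 1955 and 2161) and Ndufb4 of respiratory complex I (439 and 440 against 3427 and 3342). Splicing regulators had 9 of 92 (9.78%, against 11.8% of all genes). They were led by Hnrnpa3 (20 and 16 against 946 and 817), Rbm4 (109 and 167 against 10 and 6) and Hnrnpf (738 and 737 against 4873 and 4976). Whether reads of pseudogene copies enter the values of Timm23 and Hnrnpa3 was not tested. Endocytosis had 2 of 61 (3.28%, against 11.8% of all genes), Tom1 (116 and 107 against 3343 and 3564) and Synj2 (57 and 73 against 139 and 117). Adhesion and cytoskeleton had 5 of 91 (5.49%, against 11.8% of all genes). They were led by Ablim3 (28 and 41 against 17 and 7), Fblim1 (55 and 63 against 11 and 35) and fibronectin, Fn1 (3263 and 4147 against 7879 and 8859). In the podocyte list 1 of 33 was unequal (3.03%, against 11.8% of all genes), Trpc6, a cation channel (2 and 3 against 44 and 37). In nonsense-mediated decay 0 of 13 were unequal by limma voom, with 2 at an unadjusted p under 0.05.

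Unequal reads and divergent exons occurred in the same genes in part. Of the 351 genes with a divergent exon, 68 also had unequal alleles (19.4%), which is 6.80% of the 1000 unequal genes. Among the 7884 genes with a member event, 707 had unequal alleles (8.97%). Of the 24 named exon genes 14 were unequal, 8 toward C57BL/6J and 6 toward SPRET/EiJ. The exon of an unequal gene is measured with fewer reads on its lower allele, and both readouts come from the same reads, so no test was made. Fut8 was an example of a divergent exon with balanced alleles, with a C57BL/6J share of 50.5% and 49.5%. Hsd3b2, with 15.4% and 18.97%, was an example of the opposite.

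The same exons were then read in the other tissues of the cross, which are separate libraries. Of the 24 named exons, 18 had 20 reads or more on each allele and library in at least 1 other tissue, and 5 had them in all 6. All 69 such measurements had the direction of kidney, with a median |ΔPSI| of 0.844, against 0.851 for the 24 in kidney. The lowest was Ugt1a10 in liver, with a PSI of 0.0967 and 0.127 on the C57BL/6J allele and of 0.323 and 0.522 on the SPRET/EiJ allele. The other 68 were at 0.6 or above. In Tor1aip1, ΔPSI was -0.988 in heart, -0.984 in liver, -0.989 in lung, -0.977 in spleen, -0.987 in cortex and -0.952 in embryonic stem cells (ESC).

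**Figure D5:**
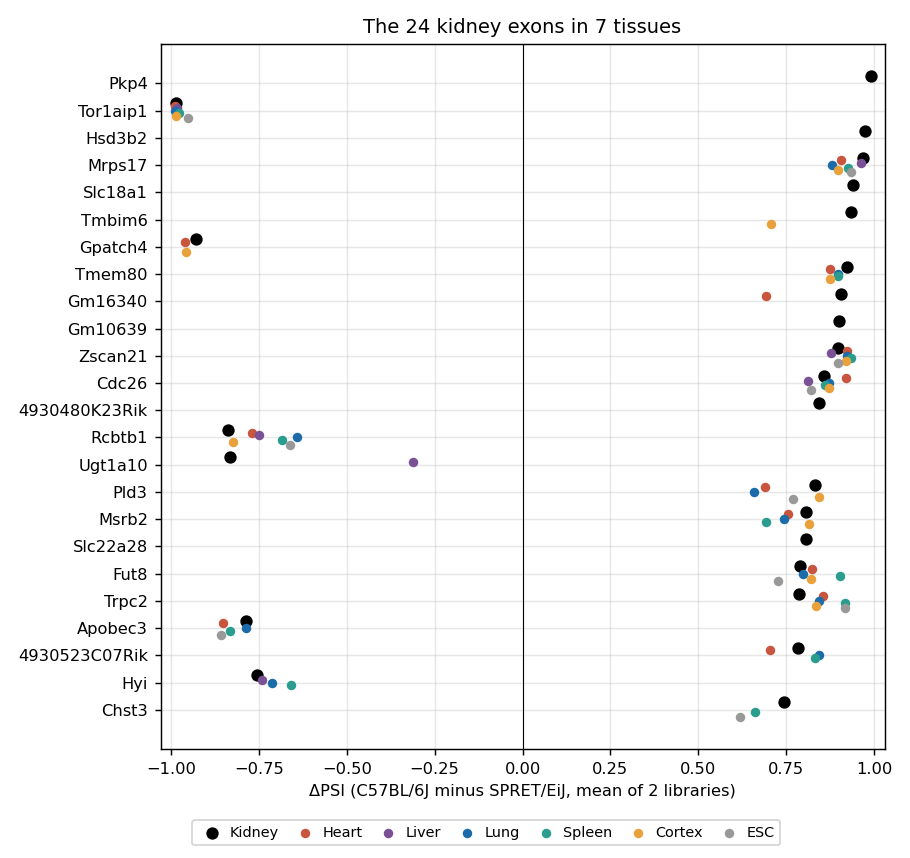
ΔPSI, C57BL/6J minus SPRET/EiJ, mean of 2 libraries (x axis), of the 24 named kidney exons (rows) in kidney (large black points) and in 6 other tissues (coloured points), where each allele had 20 reads or more in each library. The coloured points lie on the side of the black one in every row that has any, and Ugt1a10 in liver lies farthest from its kidney value.

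Over all 445 divergent events, those measured in another tissue numbered from 268 in liver to 332 in lung. The share with the same direction ran from 96.1% in heart to 99.3% in liver, and the share that also reached a ΔPSI of 0.1 from 68.0% in cortex to 80.7% in lung. Of the events not divergent in kidney, between 7.22% (liver) and 10.5% (heart) had a |ΔPSI| of at least 0.1 in the other tissue. Across these events Pearson's r between the ΔPSI of kidney and of the other tissue was 0.901 (cortex, n = 300) to 0.946 (lung, n = 332), a description over events that share genes and, for most tissues, animals. The median ΔPSI in the direction of kidney was lower than in kidney in each tissue, for example 0.157 against 0.250 in cortex, where the kidney values had been selected for size.

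Where kidney differed from another tissue was tested with an allele-by-tissue term. The liver data came from an earlier study of the same animals, and lung was sequenced with shorter reads than kidney and heart before trimming. A tissue effect cannot be told apart from study in the liver comparison or from sequencing in the lung comparison. Against heart, 1 of 10809 events passed (0.00925%), against liver 1 of 9272 (0.0108%) and against lung 1 of 13113 (0.00763%). The shares of events with an unadjusted p under 0.05 were 5.60%, 3.84% and 3.94%. With the replicate block in each tissue 0 events passed in each comparison, with 402, 200 and 323 events at an unadjusted p under 0.05.

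The event against heart was in Ccbl1, a kynurenine aminotransferase, at chr2:30197957-30198159. In kidney its PSI was 0.235 and 0.215 on the C57BL/6J allele and 0.146 and 0.154 on the SPRET/EiJ allele, and in heart 0.151 and 0.224 against 0.331 and 0.395 (limma-moderated adjusted p = 0.0395). The event against liver was in Tprkb, which binds a kinase of tRNA modification, at chr6:85919917-85920024. In kidney its PSI was 0.270 and 0.255 against 0.111 and 0.146, and in liver 0.137 and 0.117 against 0.428 and 0.677 (limma-moderated adjusted p = 0.0115). The event against lung was in Tbxas1, thromboxane synthase, at chr6:39083693-39083855. In kidney its PSI was 0.892 and 0.943 against 0.524 and 0.585, and in lung 0.760 and 0.797 against 0.985 and 0.989 (limma-moderated adjusted p = 0.00117). In all 3 the C57BL/6J allele was more included in kidney and the SPRET/EiJ allele in the other tissue. Tbxas1 had 32 and 42 reads on the SPRET/EiJ allele in kidney and 1333 and 943 in lung.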

How the data were processed

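Per the labels and the study's methods, the authors trimmed reads to a common length, used HISAT2 2.0.1 on both parental genomes (mm10 for C57BL/6J), assigned a read to the parent it matched with fewer edits, and counted junction reads with rMATS. The deposited SE tables hold not normalized counts of inclusion and skipping junction reads, as lists of both libraries, with the effective length of each form. They also hold the authors' p-values, FDR, inclusion levels and differences, which were not used. TPM values were made by the authors from all reads. Liver labels carry other strain names than the rest.

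PSI was recomputed from counts and lengths. Kidney alleles added up, position by position, to the union of allelic reads in 31931 of 31931 events, so list positions pair the alleles of a library, and the replicate differences of both alleles correlated (r = 0.176, and 0.206 at mean PSI from 0.1 to 0.9). The order of positions matched the TPM libraries (r = 0.809 across 8400 genes). The quasi-binomial F test used dispersions moderated by limma 3.58.1 (prior from events with 20 or more reads of the rarer form, trend on depth, at least 1 after moderation), without a block, as in the study, with a replicate block as an alternative. Several forms of the prior had been fitted to these data, and their numbers of calls seen, before data were simulated. Some gave more calls and some fewer. The form written first was kept because it made fewer false calls in the simulation, not for its number of calls. The simulation drew its spread from the prior of that form, with no effect shared by both alleles of a library. It therefore cannot rank that form against the other priors, the block or the limma fits, and its false calls do not justify the choice. Gene sums were tested with limma voom on median-of-ratios scaling. A test of counts by edgeR was planned but was not run, and limma voom took its place on counts split from the lists. Library totals would shift the median log2 ratio by 0.12. The tissue term used the same quasi-binomial model. The Benjamini-Hochberg adjustment ran over all events or all genes tested. Intervals and limits for a count of 0 (3 counts) cover counting error only. The intervals take each summed read as separate, so they are too narrow where events of a gene share junctions. Libraries came from 2 animals. The p-values use the spread between their libraries within each allele, moderated toward that of other events or genes. Without the block they treat the 2 alleles of a library as independent. RefSeq (GRCm38.p6) gave gene spans and classes. Methods were tested on simulated data. Named exons were the 24 divergent ones with the largest |ΔPSI|, 1 per gene, and not overlapping; named genes the 10 highest and 10 lowest unequal ratios with 200 or more reads in each library; list members the first 3; tissue terms the first 5. Members and lists were chosen with earlier results of these data known. Python 3.11.15, numpy 2.4.6, scipy 1.17.1, pandas 2.3.3 and R 4.3.3 were used.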

Additional observations from a re-analysis of the deposited data

Results flagged for a closer look

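The difference in allelic ΔPSI between kidney and another tissue passed the interaction test in 3 events. Ccbl1 had a ΔPSI of 0.0750 in kidney and -0.176 in heart, a difference of 0.251 ± 0.050 (SE). Tprkb had 0.135 in kidney and -0.425 in liver, a difference of 0.560 ± 0.126. Tbxas1 had 0.363 in kidney and -0.208 in lung, a difference of 0.572 ± 0.0439. None of the 3 passed with the replicate block, where the smallest adjusted p over all events was 0.735 against heart, 0.863 against liver and 0.856 against lung by the limma-moderated test.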

How the results depend on the processing

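The number of divergent events stayed within 1.5 times of 445 with a prior without depth trend, minimums of 10 or 50 reads, agreement with all reads and dispersions raised to 1 before moderation (356 to 614 calls). It was 0 with the replicate block, 39 with that block and a prior from events with 100 or more reads of the rarer form, and 379 with the block and dispersions raised to 1 before moderation. It was 293 at a |ΔPSI| of 0.2, 931 without events near PSI 0 or 1 (4240 tested), 762 by limma on log2 ratios and 962 by limma with the replicate block. Raising dispersions, both later forms of the block and both limma fits were chosen after seeing the data. On simulated data the limma fits on log2 ratios recovered few of the changed events, but those data followed the spread of the main form. Of the 445, between 429 and 435 kept a |ΔPSI| of 0.1 in the same direction with 1 library left out, a value with no test. Of the 24 named exons, 24 passed by both limma fits, 21 lay within 0.1 of all reads, and 0 passed with the planned replicate block. Their size with 1 library left out could not be judged, because the limit for a change came from the same 2 libraries. The other settings were not tabulated for single exons. The number of unequal genes stayed between 680 and 1091 over the alternatives, with 1026 under the replicate block and 923 to 930 with 1 library left out. In 7 of the 20 named genes the ratio moved by more than its spread with 1 library left out: log2 7.93 and 9.56 in Gm853, 9.81 and 6.82 in 4930481A15Rik, 7.07 and 9.10 in Grb10, 6.72 and 8.19 in Nccrp1, 8.32 and 6.00 in Rec8, -9.95 and -9.31 in Pzp, and -8.35 and -8.81 in Cyp2d12, in the first and second library alone. A2m had -8.42 and -6.59. For the tissue terms, the replicate block gave 0 calls in each, the prior without depth trend 0 for heart, 2 for liver and 2 for lung, and a minimum of 50 reads 0 for lung. With 1 library left out, each of the 3 events kept its direction and size limit (1 to 1). The cause was not tested. The planned edgeR and DESeq2 fits were not run. Depth limits events near 20 reads, where a count of 0 still allows a share of up to 14.3% of reads (Gpatch4).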

Other observations

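In genes of the cilium, the antenna of tubule cells whose loss gives cystic kidneys, 5 of 345 events were divergent (1.45%, against 1.79% of all events), 2 higher on the C57BL/6J allele and 3 on the SPRET/EiJ allele. Pkhd1, the gene of recessive polycystic kidney disease, had a PSI of 0.958 and 0.961 on the C57BL/6J allele and of 0.783 and 0.735 on the SPRET/EiJ allele, in an exon of 213 bases at chr1:20414221-20414433. Cep164, of the distal appendages of the centriole, had 0.492 and 0.435 against 0.895 and 0.848, and Cep250, a centrosomal linker protein, 0.887 and 0.894 against 1 and 0.996. In allelic balance, 8 of 83 cilium genes were unequal (9.64%, against 11.8% of all genes), 4 in each direction. Bbip1, a subunit of the BBSome, had 632 and 608 reads on the C57BL/6J allele and 119 and 154 on the SPRET/EiJ allele, Spag1 56 and 51 against 233 and 230, and Dnah11, a dynein of motile cilia, 77 and 39 against 17 and 10.

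Among zinc finger genes of the Zfp, Zkscan and Zscan names, 11 of 319 events in 141 genes were divergent (3.45%, against 1.79% of all events), 8 of them higher on the C57BL/6J allele. Besides Zscan21, Zfp839 had a PSI of 0.265 and 0.206 on the C57BL/6J allele and of 0.829 and 0.933 on the SPRET/EiJ allele, and Zfp672 had 0.891 and 0.942 against 0.371 and 0.431. Of 170 such genes, 23 had unequal alleles (13.5%, against 11.8% of all genes), 16 toward C57BL/6J, with Zfp369 at 6 and 5 reads against 61 and 41 and Zfp93 at 94 and 103 against 23 and 13. In the imprinted Slc22a18, the exon at chr7:143479720-143479880 had a PSI of 0.693 and 0.686 against 0.892 and 0.923. Its mean PSI was 0.771 from reads assigned to either allele and 0.958 from all reads. The event thus failed the check of assigned reads against all reads. The PSI of all reads lay above the values of both alleles, so this allelic difference is uncertain.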
